A study of Homo sapiens with 30 samples.

Results

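The collagens other than type I were taken as the protein-coding genes of the human annotation with a symbol of the form COL, number, A, number, leaving out COL1A1 and COL1A2. This gave 42 of 20046 protein-coding genes. For each of them, LARP6 crosslinking was read as the iCLIP peaks centred in the gene on its own strand, and expression was read as the gene's count in the long-RNA input libraries. Of the 42 genes, 18 held a peak in any list.

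The study asked which parts of the RNA-binding protein LARP6 set its contacts with RNA in U-87 MG cells, an established glioblastoma line. Individual-nucleotide crosslinking and immunoprecipitation (iCLIP) marks the bases that touch a protein in UV-irradiated cells. It was run on cells expressing myc-tagged LARP6 as the full-length protein (FL), without the N-terminal region (ΔNTR), without the C-terminal region (ΔCTR), without the folded La-module (ΔLa-module), or without the whole N-terminal domain, which holds the N-terminal region and the La-module together (ΔNTD), and on parental cells with no transgene. The labels give 60 ng/mL doxycycline for 24 h for all samples, with 3 iCLIP samples and 1 long-RNA input library per line. Each transgene was codon-optimised, doxycycline-inducible and carried by lentivirus in stably transduced, puromycin-selected cells, in which endogenous LARP6 was still present, so that every line except the parental line made both proteins.

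Collagens are trimers of alpha chains wound into a triple helix, and the helical part of a chain is a row of triplets that begin with glycine, written Gly-X-Y. Type I collagen is the main fibre of bone, skin and tendon, whereas the other types trim fibrils, link them to cells, form the sheets of basement membranes or span the plasma membrane. LARP6 is best known for a stem-loop at the start codon of some fibrillar collagen mRNAs, including those of type I and of COL3A1, the type III chain.

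The deposited peak lists were each pooled over 3 iCLIP samples, and peaks found in parental cells had been subtracted. A peak carried a whole-number score, the sum of its replicate peak scores, and no listed score was under 3, so that a site without a listed peak is not a site at 0. The FL list had 14334 peaks, against 17180 with ΔNTR and 15870 with ΔCTR, whereas ΔLa-module gave 636 and ΔNTD 291. The input libraries held 25027075 to 28692476 gene counts. No list or input library had a replicate in the files used here, so no p-value could be computed. The intervals are 95% intervals that treat scores and reads as counts, cover counting error only, and are therefore a minimum error. In the parental input the mesenchymal and glioma markers VIM and CD44 had 194113 and 58747 counts, the neural markers NES and OLIG2 had 1467 and 56, and the glial and neural markers GFAP, S100B and SOX2 were at or near 0, with 5, 1 and 0. In the same library the immune, endothelial, epithelial, oligodendrocyte and neuronal markers PTPRC, PECAM1, EPCAM, KRT8, MBP and RBFOX3 had 1, 65, 46, 122, 104 and 4. Since the input is bulk RNA, fewer cells making a collagen and less of its RNA per cell cannot be told apart.

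The members of the group were expressed at very unequal levels. Of the 42 genes, 26 had fewer than 100 counts in every input library, 18 of these had 10 or fewer in every library, and 10 had at least 1000 in every library. COL6A3 alone supplied between 55.4% and 60.1% of the group's counts in each library, and the 3 type VI chains COL6A1, COL6A2 and COL6A3 supplied between 77.5% and 79.9%. COL3A1 was at 0 to 4 counts and carried no peak. Peaks followed the same order. In FL, 13 of the 42 genes carried a peak, against 22.9% of all protein-coding genes, and by parental input count they were 0 of 22 genes with 0 to 9 counts, 1 of 4 with 10 to 99, 3 of 6 with 100 to 999, 6 of 7 with 1000 to 9999 and 3 of 3 with 10000 or more. Over all protein-coding genes the shares in these count classes were 0.949%, 2.73%, 18.6%, 61.7% and 95.1%. The group's share was above that of all genes in each class from 10 counts up, with 3 to 7 members in a class, and this difference was not tested.

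ΔNTR gave peaks in 8 members (23.4% of all protein-coding genes) and ΔCTR in 14 (24.5%). ΔLa-module had 2 peaks in 1 member (2.21% of all genes had one), and ΔNTD had 3 peaks in 2 members (1.18%). All 5 of these peaks had the minimum score of 3. The ΔLa-module peaks lay in COL6A3, at chr2:237381364-237381380 in the coding sequence (CDS) and at chr2:237413967-237413983 in the 5′UTR. The ΔNTD peaks lay in the 3′UTRs of COL6A3 (chr2:237324105-237324122 and chr2:237324304-237324335) and of COL12A1 (chr6:75085395-75085411). Against the 117 FL peaks of the group (interval 96.8 to 140), the 135 of ΔNTR (113 to 160) and the 108 of ΔCTR (88.6 to 130), these counts are far below the counting intervals, and both lists were small for all genes alike.

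**Figure D1:**
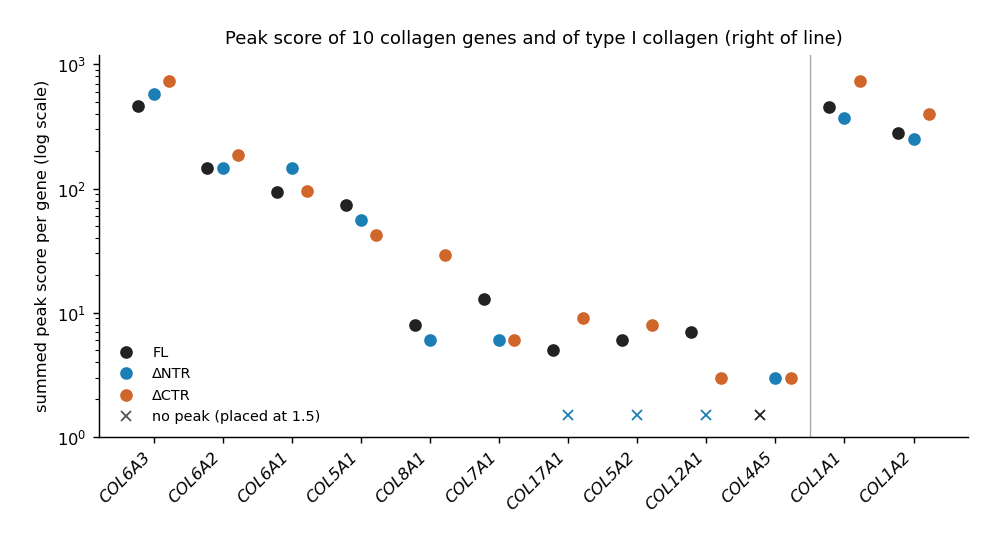
Summed peak score per gene (log scale) in the FL, ΔNTR and ΔCTR lists for the 10 members with the highest score over the lists, and for the type I chains on the right; crosses mark genes without a peak in that list, and each point is 1 pooled list with no error bar. The type VI chains and COL5A1 stand above the other members in all lists, COL6A3 reached 460, 578 and 739, and the type I chains lay between 252 and 737.

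Type VI collagen carried most of the LARP6 signal of the group. Type VI is the beaded filament that ties cells to the surrounding matrix, built from the chains of COL6A1, COL6A2 and COL6A3, and its genes held 701 of the members' FL score of 826, which is 84.9%, then 92.2% in ΔNTR and 90.1% in ΔCTR. COL6A3 (chr2:237324003-237414328, minus strand, 44 exons in the canonical mRNA of 10532 nt) had 57 peaks with a summed score of 460 in FL, 76 peaks and 578 in ΔNTR, and 53 peaks and 739 in ΔCTR. Its input counts were 94158 (parental), 89177 (FL), 84493 (ΔNTR), 82038 (ΔCTR), 88438 (ΔLa-module) and 84996 (ΔNTD); the other genes' counts follow in this order of lines. COL6A3 scored higher in both shorter proteins than in FL, while its input counts stayed between 82038 and 94158.

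The strongest COL6A3 peak of the FL, ΔNTR and ΔCTR lists stood at 1 place near the 3′ end of the coding sequence. Here and below, a site is a stretch of overlapping peaks merged over these lists. The score of a site in a list is the sum of its peaks there, and can exceed that of any single peak. The site of the strongest COL6A3 peak, chr2:237334686-237334704, lay 373 nt before the end of the stop codon. It had scores of 73, 68 and 201 with FL, ΔNTR and ΔCTR. Its neighbour at chr2:237334724-237334808 scored 44, 58 and 60. Another site, chr2:237341107-237341155, 1749 nt before the end of the stop codon, scored 39, 31 and 84, and was thus the next highest in ΔCTR. The strongest site inside the Gly-X-Y repeats, chr2:237352519-237352588, scored 36, 21 and 44. The 29 nt around the centre of these sites are shown because they carry the largest scores of the group; they are given from 5′ to 3′ on the transcribed minus strand (GRCh38), and capitals mark in-frame glycine codons (GGN).
COL6A3, 373 nt before the end of the stop codon, chr2:237334680-237334708: cgctGGGcagacataccatgtggctgtgg
COL6A3, its neighbour, chr2:237334752-237334780: ctcagcccatgatcagtccctggttctga
COL6A3, 1749 nt before the end of the stop codon, chr2:237341117-237341145: tgcaacatcgacccatcctgtGGAtttgg
COL6A3, in the Gly-X-Y repeats, chr2:237352541-237352569: gctGGTcctccaGGGctgataGGAgaaca
The repeat window shows regularly spaced glycine codons, which the other 3 windows lack. Of the 29 bases, 13, 18, 16 and 12 were C or T, in the order shown.

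**Figure D2:**
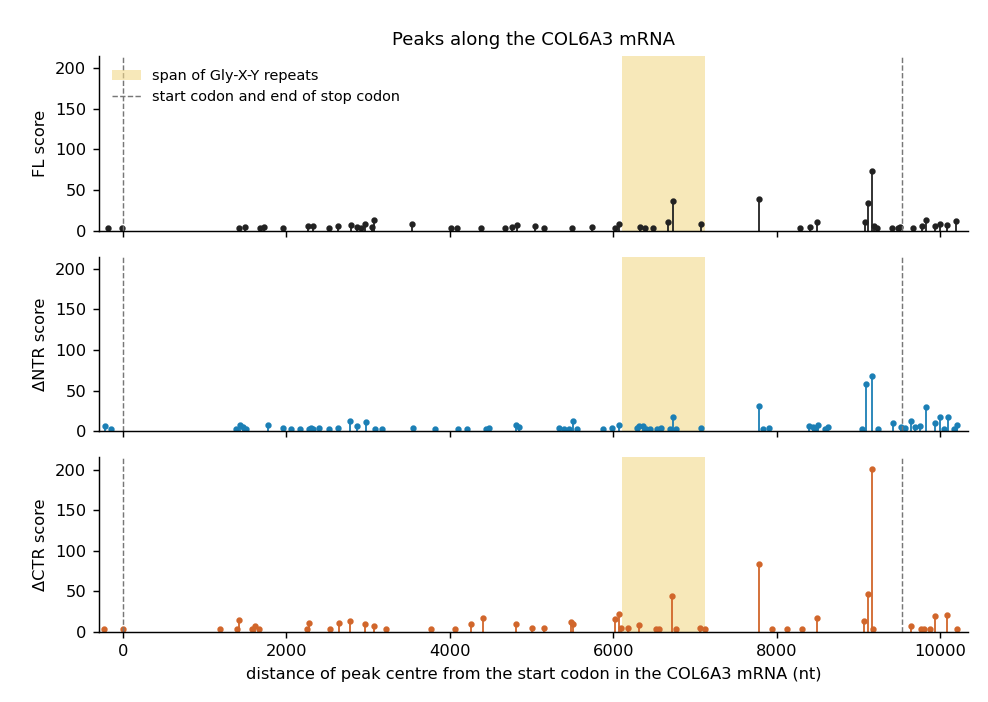
Peaks of the FL, ΔNTR and ΔCTR lists along the spliced COL6A3 mRNA; the x axis is the distance of the peak centre from the start codon (nt), the height is the peak score, the shaded band is the span of the Gly-X-Y repeats, and dashed lines mark the start codon and the end of the stop codon. The tallest peak of each list, at 73, 68 and 201, stands at the same place close to the stop codon, and low peaks are spread over most of the coding sequence.

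To compare lists of unequal size, each score was divided by the total score of its list (102788 in FL, 92958 in ΔNTR and 118751 in ΔCTR). On this scale COL6A3 was 1.39 times FL in ΔNTR (1.23 to 1.57) and 1.39 times FL in ΔCTR (1.24 to 1.57), both against the same FL list. The 2 lists did not raise it in the same places. In ΔCTR the highest site made up 27.2% of the gene's score, against 15.9% in FL and 11.8% in ΔNTR, and its scaled score was 2.38 times that in FL (1.81 to 3.16), whereas in ΔNTR it was 1.03 times FL (0.729 to 1.45). Without this site COL6A3 stood at 1.20 times FL in ΔCTR (1.05 to 1.37) and at 1.46 times FL in ΔNTR (1.27 to 1.67). In the COL6A3 3′UTR the scores were 55 in FL, 118 in ΔNTR and 62 in ΔCTR, which gave scaled ratios of 2.37 (1.71 to 3.33) and 0.976 (0.668 to 1.43), and in its coding sequence they were 393, 441 and 668, which gave 1.24 (1.08 to 1.43) and 1.47 (1.30 to 1.67).

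Single COL6A3 3′UTR sites differed in direction. The site 289 nt after the stop codon, chr2:237324449-237324577, scored 19 with FL, 37 with ΔNTR and 7 with ΔCTR, or 2.15 times FL (1.21 to 3.96) and 0.319 times FL (0.113 to 0.792). The site 396 nt after the stop, chr2:237324352-237324404, scored 6, 10 and 20, or 1.84 times FL (0.607 to 6.17) and 2.89 times FL (1.12 to 8.78). The site 550 nt after the stop, at chr2:237324193-237324271, scored 7, 21 and 21 and was above FL in both lists, at 3.32 (1.36 to 9.24) and 2.60 (1.06 to 7.23). The windows at these sites are shown because they differ in how pyrimidine-rich they are; capitals mark runs of at least 4 C or T.
COL6A3 3′UTR, 289 nt after the stop codon, chr2:237324471-237324499, minus strand: tatcaatccaaaTTCCCTCTggagTTTCa
COL6A3 3′UTR, 396 nt after the stop codon, chr2:237324364-237324392, minus strand: ttcaTTTTTTTTCCCTTTTagttaagcat
COL6A3 3′UTR, 550 nt after the stop codon, chr2:237324210-237324238, minus strand: tagttcagaaggaagcaaaaTCCCTTaat
The middle window held 22 C or T of 29 bases and the last held 12. Sites with a score of at least 20 in any list were singled out by their scores, so the differences between lists at these sites are a description.

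COL6A2 and COL6A1 lie on chromosome 21, at chr21:46098112-46132848 and chr21:45981770-46005050 on the plus strand, and encode the shorter type VI chains. COL6A2 had 18 peaks with a summed score of 147 in FL, 18 and 146 in ΔNTR, and 15 and 186 in ΔCTR, with input counts of 15942, 15175, 16837, 14541, 16999 and 14080. Its scaled score was 1.10 times FL in ΔNTR (0.867 to 1.39) and 1.10 in ΔCTR (0.877 to 1.37), so that no difference was detectable at this depth. COL6A1 had 18 peaks and 94 in FL, 28 and 146 in ΔNTR, and 21 and 95 in ΔCTR, with input counts of 15158, 14454, 16957, 13661, 16092 and 13949. It was 1.72 times FL in ΔNTR (1.32 to 2.25) and 0.875 times FL in ΔCTR (0.651 to 1.18). The interval for COL6A1 lay above 1 in ΔNTR, where its input CPM was 679.0 against 514.9 in FL, and ran through 1 in ΔCTR. Its 3′UTR scored 72 in ΔNTR against 47 in FL, and its CDS past the repeats 39 against 9.

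The best COL6A2 site lay past the repeats at chr21:46125868-46125930 and scored 35 with FL, 48 with ΔNTR and 42 with ΔCTR. A site 223 nt after the start codon, chr21:46112063-46112140, scored 24, 13 and 39. Another, in the repeats at chr21:46121054-46121087, scored 20, 16 and 39. The best COL6A1 site lay 458 nt after the stop codon at chr21:46004444-46004531 and scored 24, 33 and 9, which was 1.52 times FL in ΔNTR (0.872 to 2.69) and 0.325 times FL in ΔCTR (0.133 to 0.723). Like the COL6A3 site 289 nt after its stop, this 3′UTR site had its lowest score in ΔCTR. The windows are shown for comparison with COL6A3, with capitals as above for glycine codons and for pyrimidine runs.
COL6A2, past the Gly-X-Y repeats, chr21:46125885-46125913, plus strand: tgtcaagaacctcgagtggattgcgGGCg
COL6A2, 223 nt after the start codon, chr21:46112073-46112101, plus strand: gaagcagttcgtgccgcagttcatcagcc
COL6A1 3′UTR, 458 nt after the stop codon, chr21:46004457-46004485, plus strand: CTCTCggggcctgtgccgcactagCCTCC
In COL6A2 12 and 15 of the 29 bases were C or T, and in COL6A1 19 were.

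COL5A1 (chr9:134641803-134844843, plus strand) encodes a chain of type V collagen, a minor fibrillar collagen known for setting fibril diameter. It had 9 peaks with a score of 74 in FL, 7 and 56 in ΔNTR, and 6 and 42 in ΔCTR. Its input counts were 9882, 10757, 14544, 9910, 12254 and 11199. The scaled score was 0.837 times FL in ΔNTR (0.581 to 1.20) and 0.491 times FL in ΔCTR (0.328 to 0.727). COL5A1 was the only member of the 4 with a score of at least 50 over both lists that stood 2-fold or more below FL in ΔCTR, against 5.66% of the 866 protein-coding genes of such score. None stood 2-fold above FL in ΔCTR (5.66%), and none stood 2-fold above (9.33%) or below (11.9%) FL in ΔNTR. Most of its FL score was at 1 site, chr9:134642203-134642292, whose strongest peak lay 82 nt after the start codon. The peaks of this site summed to 50 with FL, 37 with ΔNTR and 25 with ΔCTR, and the ΔCTR sum was 0.433 times FL (0.257 to 0.713). The highest single peak of the site scored 26, 37 and 20. The lower ΔCTR score of COL5A1 thus lay mainly at this site.

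Besides COL5A1, COL6A1 had a coding site near its start, 32 nt after the start codon at chr21:45981844-45981907, with scores of 8, 11 and 3. The 2 windows are shown together because they are built alike.
COL5A1, 82 nt after the start codon, chr9:134642256-134642284, plus strand: gctgctgctgctgctgtgggcgccgcctc
COL6A1, 32 nt after the start codon, chr21:45981869-45981897, plus strand: ctgctgcccctgctgctgcaggcctgctg
Both hold the letters CTGCTG, which were looked for after these windows had been seen, on the transcribed strand. Among the CDS peaks of the group these letters were in 3.57% of the 84 FL windows of this length (1.22% to 9.98%), 4.81% of those of ΔNTR (2.07% to 10.8%) and 4.88% of those of ΔCTR (1.91% to 11.9%). Over all CDS peaks of the lists the shares were 2.44%, 3.03% and 2.71%, within these intervals.

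The other members carried few peaks. COL8A1, a chain of the short-chain type VIII network, had 2 peaks with a score of 8 in FL, 2 and 6 in ΔNTR, and 3 and 29 in ΔCTR, with input counts of 4222, 3580, 3001, 3271, 3291 and 2965. Its ΔCTR score was 3.14 times FL (1.40 to 7.94) and its ΔNTR score 0.829 times FL (0.237 to 2.73). The largest difference was at a 3′UTR site, chr3:99798263-99798344, 2174 nt after the stop codon, which scored 8, 3 and 21, or 2.27 times FL in ΔCTR (0.967 to 5.93), and is shown as the highest site outside types V and VI.
COL8A1 3′UTR, 2174 nt after the stop codon, chr3:99798296-99798324, plus strand: aaCCTTTgTTTTCaaagcagacagcatct

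COL7A1, the chain of the anchoring fibrils under epithelia, had 4 peaks with a score of 13 in FL, 2 and 6 in ΔNTR, and 1 and 6 in ΔCTR, with input counts of 4487, 5326, 5230, 4471, 5039 and 3982. COL5A2, the partner chain of COL5A1, scored 6 in 2 FL peaks and 8 in 2 ΔCTR peaks, all in Gly-X-Y repeats, and had no ΔNTR peak, at input counts of 3173, 2956, 2564, 2921, 2826 and 2705. COL12A1, a fibril-associated collagen, scored 7 in 2 FL peaks and 3 in 1 ΔCTR peak, with none in ΔNTR, at counts of 2734, 3440, 2872, 3282, 3643 and 3333. For these 3 genes the intervals of the ratios to FL ran through 1 in ΔCTR. In ΔNTR that of COL7A1 did so too (0.510, 0.159 to 1.44), and for COL5A2 and COL12A1, without a listed ΔNTR peak, no ratio is given.

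COL17A1, a transmembrane collagen of hemidesmosomes, had an intronic site at chr10:104032483-104032502, minus strand, with scores of 5 in FL and 9 in ΔCTR and no peak in ΔNTR, at 107, 99, 78, 105, 125 and 93 counts. In ΔCTR this came to 85.7 of score per 1000 input counts, at percentile 99.7 of the genes with a peak. The value rests on 1 intronic peak and on 105 counts, close to the minimum of 100 counts for this measure. COL4A5, a basement membrane chain, scored 3 in ΔNTR and 3 in ΔCTR at counts of 791, 839, 708, 802, 751 and 724. The other 8 genes with a peak were COL4A6, COL5A3, COL15A1, COL16A1, COL19A1, COL21A1, COL26A1 and COL27A1, and none of them exceeded the minimum score of 3 in a list. COL19A1, COL21A1 and COL26A1 had at most 7 input counts in any library and 1 intronic ΔCTR peak each.

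Among the 24 members without a peak, COL13A1, a transmembrane collagen, had 1726 counts in parental cells and 1546 to 1810 in the others, and COL4A2, a basement membrane chain, had 492. COL13A1 was the only member with 1000 counts or more in parental cells and no peak in any list. The other 22 members without a peak were COL2A1, COL3A1, COL4A1, COL4A3, COL4A4, COL6A5, COL6A6, COL8A2, COL9A1, COL9A2, COL9A3, COL10A1, COL11A1, COL11A2, COL14A1, COL18A1, COL20A1, COL22A1, COL23A1, COL24A1, COL25A1 and COL28A1, with at most 50 counts in a library.

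Per read of input, the type VI chains scored above the median of all genes with a peak and at least 100 counts, and below type I. Score per 1000 input counts of the same line was 5.16 for COL6A3, 9.69 for COL6A2, 6.50 for COL6A1 and 6.88 for COL5A1 in FL, against a median of 3.54 over the 4465 protein-coding genes with an FL peak and at least 100 counts. COL6A3 thus stood at percentile 64.4, COL6A1 at 72.5, COL5A1 at 74.4 and COL6A2 at 83.1, while COL1A1 reached 22.1 (percentile 95.2) and COL1A2 14.7 (percentile 90.6). COL7A1, COL8A1, COL12A1, COL5A2 and COL16A1 had 2.44, 2.23, 2.03, 2.03 and 1.42, at percentiles between 16.3 and 34.7. The median of the 11 members was 5.16, and 2.44 when genes under 1000 counts were left out, since the minimum score of 3 gives a high value at low counts. The median and percentiles over all genes were not limited in this way. They are therefore not matched to the type VI chains, which had 14454 to 89177 counts in FL. In ΔNTR and ΔCTR, COL6A3 had 6.84 and 9.01, COL6A2 8.67 and 12.8, COL6A1 8.61 and 6.95 and COL5A1 3.85 and 4.24, with medians over all genes of 3.88 and 4.09. COL5A1 was below the other 3 genes in both shorter proteins, at percentiles 49.7 and 51.5.

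Peaks of the group lay mainly in coding sequence. Of the FL peaks 71.8% were in CDS (63.0% to 79.2%), 14.5% in 3′UTRs (9.27% to 22.0%), 5.13% in 5′UTRs and 8.55% in introns, and over all FL peaks these shares were 36.6%, 47.6%, 4.54% and 8.43%. ΔNTR and ΔCTR gave 77.0% and 75.9% in CDS, where all peaks gave 37.1% and 37.2%. The difference in CDS share between the group and all peaks exceeded the counting interval in each list. Collagen mRNAs have long coding sequences, however, and when the mRNA parts were weighted by length, the CDS share of the mRNAs that held the FL peaks was 84.2%, against 78.3% of the mRNA peaks observed in CDS (69.5% to 85.1%), and for 3′UTRs it was 13.4% against 17.0% (11.0% to 25.3%). Over all protein-coding genes the length share of CDS was 47.9% and the observed share 41.1%. By length, then, CDS peaks of the group were somewhat fewer than their share of the mRNA, within the counting interval, in the direction seen for all genes.

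Peaks were no denser in the repeats that encode the triple helix than in the rest of the CDS. A Gly-X-Y repeat was defined as at least 6 triplets in a row that begin with a glycine codon in the canonical mRNA. In FL, 18 of 83 CDS peaks of the group were centred in such repeats, or 21.7% (14.2% to 31.7%), where the repeats made up 23.3% of the CDS length of the same mRNAs. ΔNTR gave 18.8% (19 of 101) against 20.9% and ΔCTR 20.0% (16 of 80) against 24.1%. COL6A3, whose repeats are only 10.4% of its long CDS, had 6 of 46, 11 of 61 and 8 of 44 CDS peaks in them. Its share of peaks was thus above its length share in each list, a difference that was not tested. Without COL6A3, FL gave 32.4% (19.6% to 48.5%), ΔNTR 20.0% (10.5% to 34.8%) and ΔCTR 22.2% (11.7% to 38.1%), against length shares of 39.3%, 36.8% and 40.9%, and the length share lay above the interval in ΔNTR and ΔCTR. COL5A1 had no CDS peak in its repeats in FL, ΔNTR or ΔCTR, out of 5, 6 and 5, although they are 57.9% of its CDS. Type I had 82.8% of CDS peaks in repeats in FL (71.8% to 90.1%), 85.1% in ΔNTR and 87.5% in ΔCTR, where the repeats are 75.1% of its CDS; the intervals lay above this share in ΔNTR (76.5% to 90.9%) and ΔCTR (79.0% to 92.9%) and not in FL.

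**Figure D3:**
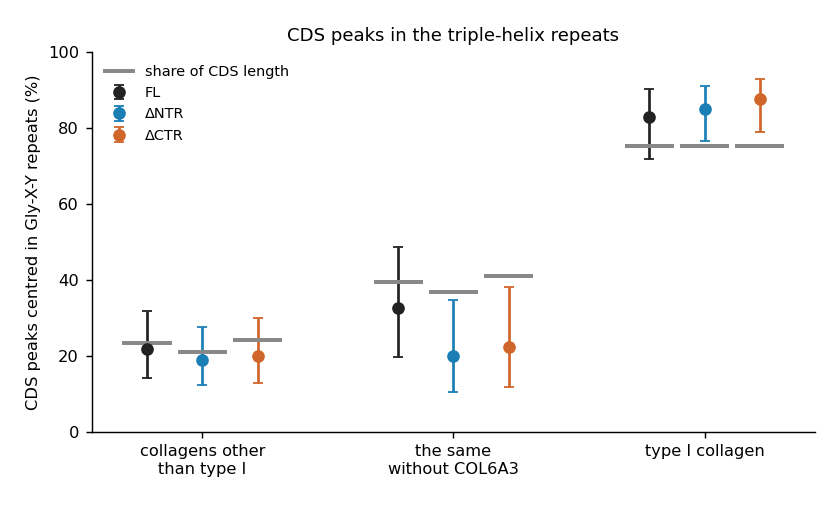
Share of CDS peaks (%) centred in Gly-X-Y repeats in the FL, ΔNTR and ΔCTR lists, with 95% Wilson intervals for counting error (bars), beside the share of CDS length made up by the repeats (grey lines). The group lies at 18.8% to 21.7%, near its length share of 20.9% to 24.1%, without COL6A3 it lies below its length share, and type I lies at 82.8% to 87.5%, above 75.1%.

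Start-codon peaks of the group were few and, apart from COL6A1, of low score. A peak within 50 nt of the start codon was found for FL in 3 of 42 members (1.55% of all protein-coding genes), for ΔNTR in 1 (1.9%) and for ΔCTR in 3 (1.23%). The group's share was above that of all genes in each of these lists, but it rested on 1 to 3 genes. ΔLa-module and ΔNTD had no such member (0.0549% and 0.0249%). COL6A1 had the 5′UTR peak chr21:45981808-45981831, 32 nt before the start codon, with a score of 3 in FL alone. Its coding site, given above as 32 nt after the start codon, also reached back over that codon. COL6A2 and COL6A3 had a peak over the start codon itself, at chr21:46111458-46111499 with a score of 3 in FL alone, and at chr2:237396799-237396831 with a score of 3 in FL and 4 in ΔCTR. COL5A1 had a ΔCTR peak with a score of 5 that lay 36 nt after the start codon. It belongs to the COL5A1 site given above, beside the stronger peak farther in. In type I, the sites whose windows held the start codon scored 43 in COL1A1 and 35 in COL1A2 with FL. The highest FL scores of sites in the type I 5′UTRs were 92 in COL1A1 and 98 in COL1A2. These sites lay farther upstream, and their windows did not reach the start codon. The windows are shown because the start codon is where LARP6 is known to bind fibrillar collagen mRNAs; capitals mark the ATG.
COL6A2, over the start codon, chr21:46111464-46111492, plus strand: aggtgctgccaagATGctccagggcacct
COL6A3, over the start codon, chr2:237396801-237396829, minus strand: gacaaattcaaaATGaggaaacatcggca

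Base composition at the peaks of the group was close to that of all peaks of the same kind. C and T made up 48.0% of the 31 nt around CDS peaks in FL, 49.1% in ΔNTR and 48.4% in ΔCTR, against 49.9%, 50.3% and 49.6% over all CDS peaks. At 3′UTR peaks they made up 56.7%, 58.8% and 57.4%, against 54.2%, 54.5% and 53.5%.

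Which sites the shorter proteins shared with FL depended on the score. Of the 117 FL peaks of the group, 47.9% (39.0% to 56.8%) were overlapped by at least 1 nt by a ΔNTR peak and 48.7% (39.8% to 57.7%) by a ΔCTR peak, against 35.3% and 37.9% of all FL peaks. ΔLa-module overlapped 1 of them (1.08% of all FL peaks) and ΔNTD 2 (0.502%). Split by score, 17 of 18 FL peaks with a score of 10 or more were overlapped in each list (94.4%), where 88.2% and 93.2% of all such FL peaks were. At scores of 4 to 9 the shares were 61.5% (45.9% to 75.1%) and 56.4% (41.0% to 70.7%), against 43.5% and 47.7%, and at the minimum score of 3 they were 15 of 60 (15.8% to 37.2%) and 18 of 60 (19.9% to 42.5%), against 17.0% and 18.1%. The share of all FL peaks was below the group's interval at scores of 4 to 9 in ΔNTR and at 3 in ΔCTR, and inside it at scores of 4 to 9 in ΔCTR and at 3 in ΔNTR.

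When overlapping peaks of FL, ΔNTR and ΔCTR were merged, the group had 217 sites. Of these 42 were in all 3 lists and held 563 of 826, 592 of 944 and 888 of 1132 of the score. FL alone had 45 sites with a summed score of 153, ΔNTR alone 58 with 221, and ΔCTR alone 36 with 137. At the 42 shared sites the scaled score was 1.16 times FL in ΔNTR (1.03 to 1.31) and 1.37 times FL in ΔCTR (1.23 to 1.52). ΔNTR peaks outside FL peaks were often close to them. Among 76 ΔNTR peaks without FL overlap, 41 were at most 100 nt away from an FL peak, or 53.9% (42.8% to 64.7%), against 23.6% over all such ΔNTR peaks, while for ΔCTR it was 13 of 48, or 27.1% (16.6% to 41.0%), against 21.6%. The median score of both sets was 3 and the highest 12 in ΔNTR and 10 in ΔCTR. COL6A3 carried 5.41 FL peaks per 1000 nt of mRNA, and the part of this density in the nearness of new peaks was not tested.

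Summed over the group, the score share was 0.804% of the FL list (0.750% to 0.860%), while ΔNTR gave 1.02% (0.952% to 1.08%) and ΔCTR 0.953% (0.899% to 1.01%). Against FL this was 1.26 times in ΔNTR (1.15 to 1.39) and 1.19 times in ΔCTR (1.08 to 1.30), and for type I it was 0.944 (0.847 to 1.05) and 1.34 (1.22 to 1.47). The summed input CPM of the group was 1.13 times FL in ΔNTR and 0.960 times FL in ΔCTR, and that of type I was 0.861 and 1.21 times FL. The part of the input in these score ratios was not tested. These sums depended on COL6A3. Without COL6A3 the group stood at 1.11 (0.954 to 1.28) and 0.929 (0.804 to 1.07), and without only its highest site the ΔCTR value was 1.07 (0.971 to 1.18). By region, the ΔNTR score of the group was 1.80 times FL in 3′UTRs (1.42 to 2.30) and 1.21 times FL in CDS (1.09 to 1.35). All peaks gave 0.992 and 1.06 there. In ΔCTR the group's score was 1.02 (0.787 to 1.32) and 1.27 (1.14 to 1.40) times FL, where all peaks gave 1.07 and 1.00. In the canonical 3′UTRs the higher ΔNTR score came from COL6A3 (55 in FL, 118 in ΔNTR) and COL6A1 (47 and 72). The other members with FL peaks there were lower in ΔNTR. COL8A1 had 8 and 3, and COL5A1 (7 in FL) and COL6A2 (6 in FL) had no listed ΔNTR peak there.

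Of the collagens expressed highly enough to compare, COL4A2 and COL14A1 had the lowest single log2 folds of input against parental cells. COL5A1 and COL27A1 had the highest, both in ΔNTR. In FL, ΔLa-module and ΔNTD the highest member was COL12A1, at 0.26, 0.32 and 0.25. In ΔCTR it was COL22A1, at 0.36 with 31 counts. Scaled counts (CPM, reads per unit of library size, with TMM factors) were compared with the parental library on the log2(CPM + 1) scale, and a gene was called at a 2-fold difference. Of the 17 or 18 members with a CPM of at least 1 in either library, 0 were called in each line. With a pseudocount of 0.1 in place of 1, COL4A2 and COL14A1 were called lower in ΔNTR (-1.01 and -1.19) and COL14A1 in ΔLa-module (-1.12). Over all genes tested, FL had 0.0555% called higher and 0.0% lower. ΔNTR had 0.696% and 0.0478%, ΔCTR 0.0694% and 0.00694%, ΔLa-module 0.323% and 0.0755%, and ΔNTD 0.256% and 0.0693%. The median log2 fold of the members was -0.13 (FL), -0.05 (ΔNTR), -0.12 (ΔCTR), -0.01 (ΔLa-module) and -0.19 (ΔNTD), and medians over all genes were -0.01 or nearer to 0. All 5 comparisons share the 1 parental library.

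The 5 members with the largest folds were COL4A2, COL14A1, COL5A1, COL27A1 and COL8A1. COL4A2 had a CPM of 18.4 in parental cells and then 11.2 (FL), 9.09 (ΔNTR), 9.38 (ΔCTR), 9.85 (ΔLa-module) and 9.23 (ΔNTD), with log2 folds of -0.67, -0.94, -0.90, -0.83 and -0.92. The parental library thus stood above all other libraries, and the deletion lines lay at -0.27 to -0.17 against FL. COL4A2 overlaps COL4A1 on the opposite strand, which had at most 9 counts in a library. COL14A1, a fibril-associated collagen, had 50, 50, 19, 39, 23 and 39 counts in the same order of lines, and its lowest log2 folds were -0.70 in ΔNTR and -0.67 in ΔLa-module. COL5A1 had a CPM of 368.7, 383.2, 582.4, 366.0, 428.1 and 407.0. Its ΔNTR level stood apart, at 1.58 times parental (1.54 to 1.62) by counting error. Its score per 1000 counts was below FL both in ΔNTR and in ΔCTR, where its CPM was close to that in FL.

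COL27A1, a fibrillar collagen of cartilage, had a CPM of 16.4, 19.6, 26.3, 17.5, 20.4 and 16.0, and was likewise highest in ΔNTR, with a log2 fold of 0.65. COL8A1 had 157.5, 127.5, 120.2, 120.8, 115.0 and 107.8, and was below parental in all other lines, with its lowest log2 fold of -0.54 in ΔNTD. Among the type VI chains COL6A1 reached 1.20 times parental in ΔNTR (1.17 to 1.23), and COL6A3 stood at 0.904 times parental in FL (0.896 to 0.913) and 0.862 in ΔCTR (0.854 to 0.871). With 1 library per line, the spread between cultures of a line is unknown, and these ratios have no replicate check. The highest COL6A3 site, at 2.38 times FL in ΔCTR, stood beside a COL6A3 input CPM of 3177 in FL and 3029.7 in ΔCTR.

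Enzymes and chaperones that modify collagen were listed beside the group, 23 genes in all. FL had a peak in 16 of these, ΔNTR in 16, ΔCTR in 15 and ΔLa-module in 4, and ΔNTD had none, where 22.9%, 23.4%, 24.5%, 2.21% and 1.18% of all protein-coding genes had one. These shares are not matched for input count, and most of the 23 genes had at least 1000 parental counts. Over all genes, 61.7% of those with 1000 to 9999 parental counts had an FL peak, and 95.1% of those with 10000 or more. The ΔLa-module genes were P4HA1, P4HB, PCOLCE and LOX, with scores of 3, 3, 3 and 4. The scaled score of the list was 1.20 times FL in ΔNTR (1.08 to 1.35) and 1.05 times FL in ΔCTR (0.942 to 1.17), and its summed input CPM was 1.26 and 1.01 times FL. The highest FL scores among them belonged to P4HB, a subunit of prolyl 4-hydroxylase, at 162, 154 and 126, and to PLOD2, a lysyl hydroxylase, at 115, 112 and 109.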

How the data were processed

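iCLIP was done on 18 samples, 3 for each of 6 lines, and 6 long-RNA (150 nt, paired-end) and 6 small-RNA input libraries were made, 1 of each per line. The small-RNA libraries were not used here. Per the study's methods, the authors removed rRNA and tRNA reads with Bowtie 2, mapped with STAR to GRCh38.p13 (GENCODE V42), removed duplicates with UMI-tools, called peaks per replicate with Clippy, merged 3 replicates while summing the peak score, and subtracted parental peaks with bedtools 2.30.0. The deposited peak score is not scaled to depth. Subtraction means that a collagen site with a peak in parental cells, the negative control without myc-tagged LARP6, is not listed. The deposited input counts are raw STAR counts per gene, 1 library per line, of which the reverse-strand column was used; the lines that name no gene were left out.

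Peaks were given to genes by their centre and strand with GENCODE release 44, of the same genome build, and to regions in the order CDS, 5′UTR, 3′UTR, noncoding RNA, intron. Of 62750 gene identifiers 62625 matched. CPM used TMM factors (edgeR 4.0.16, R 4.3.3), a pseudocount of 1 and a minimum CPM of 1 in either library. Intervals are Wilson for shares, exact Poisson for peak numbers, exact binomial for score shares and exact conditional binomial for ratios. Steps were tested on simulated data. The rule for named genes gave all values of the 10 members with the highest score over FL, ΔNTR and ΔCTR, the sites scoring at least 20 in any list, those within 50 nt of a start codon, the best FL site of each of the 10 members, and the 5 largest input folds; sequences were printed for the sites that carry the results. The members and lists were chosen with earlier results of these data known. Alternatives were another pseudocount, scaling (library totals, DESeq2 1.42.0), count filters, strand column, peak-score minimum, overlap rule and region order.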

Additional observations from a re-analysis of the deposited data

How the results depend on the processing

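No paired analysis was possible because the iCLIP replicates were pooled in the deposited lists and each line had 1 input library, so no replicate could be left out either. In all, 560 values were recomputed for 109 results. With only peaks of a score above 3, the members with a peak fell to 8 (FL), 4 (ΔNTR), 8 (ΔCTR) and 0 for both ΔLa-module and ΔNTD, their peaks to 57, 77, 71, 0 and 0, and the members with a start-codon peak in FL to 1, while the members' score share became 1.19% (ΔNTR) and 1.08% (ΔCTR), and 0.0% for both ΔLa-module and ΔNTD. Fewer peaks are counted by construction there. The share of FL peaks overlapped became 71.9% in ΔNTR and 68.4% in ΔCTR when only FL peaks above a score of 3 were taken, and 34.2% and 29.9% when 50% of both peaks had to be shared. With the scores as deposited, the group stood at 1.14 times FL in ΔNTR and 1.37 in ΔCTR. Without COL6A3 it stood at 1.11 in ΔNTR and, on the other side of 1, at 0.929 in ΔCTR. At sites with a peak in both lists the ΔCTR value was 1.34, and without the highest COL6A3 site, a setting chosen after seeing the data, it was 1.07. With 3′UTR placed before CDS, 3′UTR peaks rose to 22.2% in FL and 24.4% in ΔNTR, and CDS peaks in ΔNTR went to 68.9%. The median score per 1000 counts in FL was 2.44 over members of at least 1000 counts. Within 100 nt of the start codon, 2 members had a peak in ΔNTR and 1 in ΔLa-module. A pseudocount of 0.1 called 2 members in ΔNTR, COL4A2 (log2 fold -1.01) and COL14A1 (-1.19), and 1 in ΔLa-module, COL14A1 (-1.12). The cause of these changes was not tested beyond what each setting does by construction. The other 526 values kept their direction and side of the threshold, or stayed within the interval or within 1.5 times, among them those with the FL line as the reference, also chosen after seeing the data. Depth limits the members under 100 counts, where a missing peak says little, and the score is the only measure of it in the lists.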
